A study of Mus musculus with 16 samples.

Results

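The Rab GTPases described here are the 47 mouse genes whose annotated symbol consists of Rab, a number and, where present, a letter and a further digit. They were taken by symbol alone and not by any measured value, though with earlier results of these data known. They make up 47 of the 9450 genes tested. They were measured by 69 bead probes, and the probe with the highest mean signal stands for each gene. All 47 passed the filter on dim probes, a detection p under 0.05 on at least 4 of the 16 arrays, so none was lost to it. The RefSeq gene table used for names holds 59 symbols of this form, and those without a named probe were not analysed here. Names were available only through a deposited set of 16247 probes, where 42831 probes had a signal. How that set was chosen is not recorded, so Rabs may have been lost before this filter.

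Total RNA came from tissues of C57BL/6 mice aged 8 weeks, in 3 groups: control tissue (7 arrays), and the tumor microenvironment at day 4 (4 arrays) and at day 14 (5 arrays) after inoculation of B16, a pigmented melanoma line that arose in C57BL/6 mice. No genotype, transgene or drug is given for any group. The labels do not name the control tissue or its handling, and they do not say whether a replicate number stands for a separate mouse, so the p-values measure the spread between these samples, which may be partly technical. Values are background-corrected, quantile-normalised signals on the log2 scale.

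Rab proteins are small GTPases that mark the membranes of the secretory and endocytic pathways. Each is switched on by an exchange factor, recruits effectors such as motors and tethers while bound to GTP, and is switched off by a GTPase-activating protein. In pigment cells a small set of them builds and moves the melanosome. Rab32 and Rab38 deliver melanin-making enzymes to the maturing organelle, and Rab27a holds the finished melanosome on actin through melanophilin (Mlph) and the motor myosin Va (Myo5a). Loss of Rab27a in the ashen mouse, or of Rab38 function in the chocolate mouse, changes coat colour. Rab27b is the close paralogue of Rab27a and serves regulated secretion in several cell types.

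The promoter windows of Rab27a are shown because its transcript followed the pigment genes most closely of all Rab transcripts and because pigment genes are known targets of MITF, a factor that binds E-box motifs. The windows are RefSeq sequences of mouse build GRCm38.p6, each running from 250 bases before to 50 bases after an annotated start. CACGTG and CATGTG were searched on both strands, no run of bases can match both, and a match is in capitals. The first window lies at chr9:73044560-73044859 and the second at chr9:73063898-73064197, both on the plus strand.
Rab27a, first start: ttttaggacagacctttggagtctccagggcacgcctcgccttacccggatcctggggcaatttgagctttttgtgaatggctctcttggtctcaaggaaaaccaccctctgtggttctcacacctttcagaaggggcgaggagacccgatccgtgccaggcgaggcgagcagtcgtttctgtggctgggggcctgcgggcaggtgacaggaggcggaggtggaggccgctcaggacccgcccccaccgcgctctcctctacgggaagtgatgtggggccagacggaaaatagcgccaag
Rab27a, second start: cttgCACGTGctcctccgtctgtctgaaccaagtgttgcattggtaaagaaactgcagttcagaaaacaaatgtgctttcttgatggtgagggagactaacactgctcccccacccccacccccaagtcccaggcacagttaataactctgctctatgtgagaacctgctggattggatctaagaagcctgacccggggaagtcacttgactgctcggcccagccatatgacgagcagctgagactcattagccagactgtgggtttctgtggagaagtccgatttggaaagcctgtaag
The first window held neither motif. The second held 1 CACGTG, whose first base is at position -246 from the start. CACGTG was found in 7.15% of all 32851 windows of this length and in 9.8% of the 51 windows of 39 Rab genes (5 windows), and CATGTG in 14.2% of all windows and in 9.8% of the Rab windows (5 windows). Of the Rabs that correlated positively with the pigment genes, Rab17, Rab29, Rab32 and Rab8a held neither motif in their windows, and windows of Rab38, Rab36 and Rab4a were not used here. Of those that correlated negatively, only Rab5a had a match, with 2 CACGTG at positions -235 and -95. Whether these motifs bear on the transcript levels was not tested.

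The arrays of a group were not alike. The first principal component of all genes held 71.9% of the variance and set day 4 array 4 and day 14 arrays 2 and 5 (scores 142.5 to 146.8) apart from the other 13 arrays (27 at most). On these 3 arrays the mean log2 signal of 9 keratinocyte markers was 4.61 to 5.20, against 10.71 to 13.33 elsewhere. That of 13 skeletal muscle markers was 5.37 to 5.51, against 9.42 to 13.71, and that of 8 macrophage markers 4.68 to 4.97, against 10.23 to 11.58. The mean of 10 pigment genes, used below as the pigment index, was 11.68 to 12.07 on these 3 arrays. Among controls it was lowest on array 1, at 5.36, and between 8.89 and 12.24 on the remaining 6, so pigment transcripts were abundant in most control tissue as well. Apart from those of single probes, the differences between groups named below are given with and without these 3 arrays. In bulk tissue, fewer cells of a type and less RNA per cell cannot be told apart.

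Most Rab transcripts were steady across the tissue. The median SD over the 16 arrays was 0.45 for the 47 Rab genes and 0.58 for all genes, and 29 of the 47 lay under the median of all genes. Of the 47, 38 were detected on all 16 arrays (80.9%, against 70.6% of all genes), and each array detected 41 to 47 of them. The 6 with the smallest SD among those detected everywhere were Rab14, Rab35, Rab9, Rab8a, Rab6a and Rab32. Rab14, which works between the Golgi and endosomes, ranged from 11.39 to 11.89 over all 16 arrays with an SD of 0.16. Rab35, a Rab of fast recycling from the plasma membrane, ranged from 10.19 to 10.83 with an SD of 0.18. Rab9, which returns cargo from late endosomes to the Golgi, ranged from 6.87 to 7.67. For these 3 genes neither the lowest nor the highest value was on an array set apart or on control array 1.

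At the other end, 8 Rab genes had an SD of at least 1, as had 19.8% of all genes. They were Rab25, Rab15, Rab1b, Rab17, Rab38, Rab3d, Rab4a and Rab27a. Rab7b, Rab27b, Rab44 and Rab39b came next. The heatmap of all 47 genes shows arrays of every group on both sides of the mean for Rab27a, Rab38 and Rab17. This did not hold for Rab25 and Rab1b. All controls of Rab25 (10.68 to 12.58) lay above its mean of 10.34, and the 3 arrays set apart below were at 4.30 to 4.60. All day 14 arrays of Rab1b (8.97 to 10.16) lay above its mean of 8.79.

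**Figure D1:**
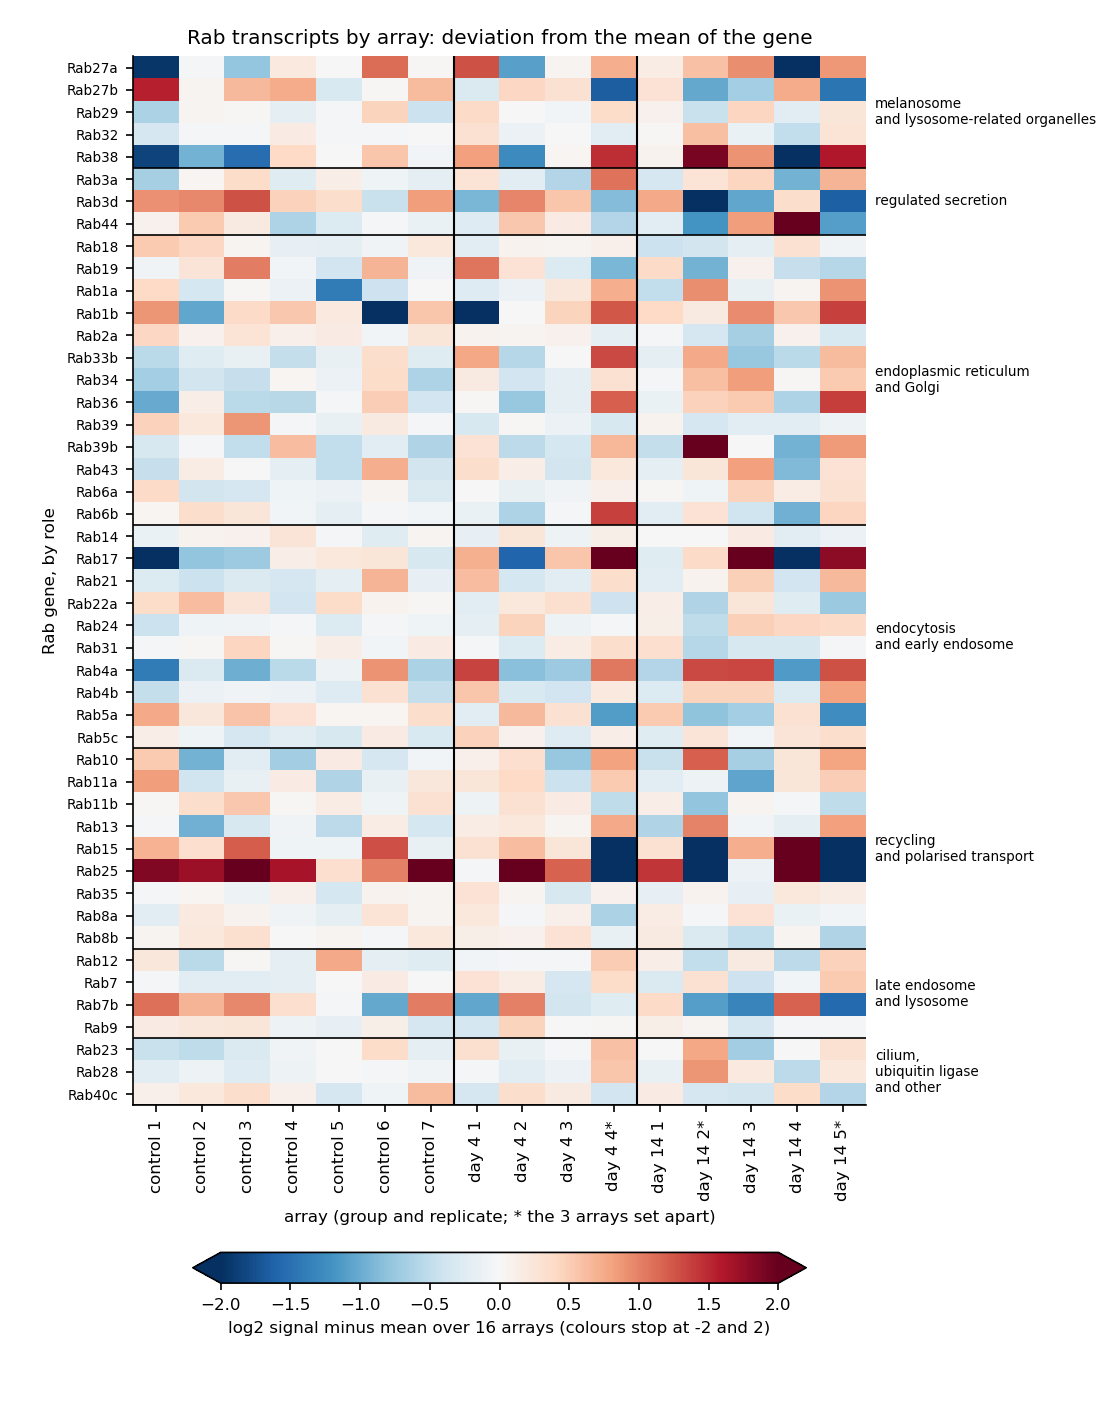
Log2 signal of each of the 47 Rab genes (rows, by role) on each of the 16 arrays (columns, by group), as the difference from the mean of the gene over all arrays. Colours stop at -2 and 2, and asterisks mark day 4 array 4 and day 14 arrays 2 and 5, on which Rab25, Rab15 and Rab27b are low and Rab38 is high.

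On the 13 arrays not set apart, Rab27a and Rab38 followed the pigment content of the array and Rab27b ran against it. Over all 16 arrays the groups overlapped for each. Rab27a had log2 signals of 9.42, 11.38 and 12.49 in controls (lowest, median, highest), of 12.64, 10.29, 11.42 and 12.09 on day 4 arrays 1 to 4, and of 11.52, 11.95, 12.30, 9.26 and 12.24 on day 14 arrays 1 to 5. Its low values were control array 1 and day 14 array 4, and the groups overlapped over nearly their whole range. The group means were 11.17 ± 0.95 (SD, n = 7) in controls, 11.61 ± 1.01 (SD, n = 4) at day 4 and 11.45 ± 1.26 (SD, n = 5) at day 14. Rab27a therefore differed from control by 0.44 at day 4 (standard error 0.629, limma adjusted p = 0.776) and by 0.28 at day 14 (standard error 0.587, limma adjusted p = 0.752), both less than the spread within groups. The differences were 0.28 and -0.14 without the 3 arrays set apart.

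Rab38 had log2 signals of 9.80, 11.59 and 12.20 in controls (lowest, median, highest), of 12.46, 10.38, 11.69 and 13.13 on day 4 arrays 1 to 4, and of 11.72, 13.54, 12.54, 9.52 and 13.25 on day 14 arrays 1 to 5. The 3 arrays set apart held its 3 highest values, and day 14 array 4 and control array 1 its lowest. It differed from control by 0.76 at day 4 (standard error 0.726, limma adjusted p = 0.75) and by 0.95 at day 14 (standard error 0.678, limma adjusted p = 0.368). Without the 3 arrays these differences were 0.35 and 0.10.

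Rab32, which shares cargo with Rab38, was among the steadiest Rabs. It ranged from 10.49 to 10.98 in controls, and was 11.13, 10.71, 10.83 and 10.60 on day 4 arrays 1 to 4 and 10.85, 11.42, 10.69, 10.33 and 11.10 on day 14 arrays 1 to 5. Its SD over 16 arrays was 0.26, against 1.24 for Rab38. Rab29, a Rab of the trans-Golgi network and lysosome-related organelles, ranged from 8.74 on control array 1 to 9.83 on control array 6.

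Rab27b ran the other way. Its log2 signal was 5.93, 6.87 and 7.80 in controls (lowest, median, highest), 5.95, 6.65, 6.54 and 4.59 on day 4 arrays 1 to 4, and 6.53, 5.22, 5.56, 6.99 and 4.78 on day 14 arrays 1 to 5. The highest value was on control array 1, where Rab27a was near its lowest, and it was not detected on the 3 arrays set apart. Rab27b differed from control by -0.79 at day 4 (standard error 0.478, limma adjusted p = 0.75) and by -0.90 at day 14 (standard error 0.447, limma adjusted p = 0.269), and by -0.34 and -0.36 without the 3 arrays.

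**Figure D2:**
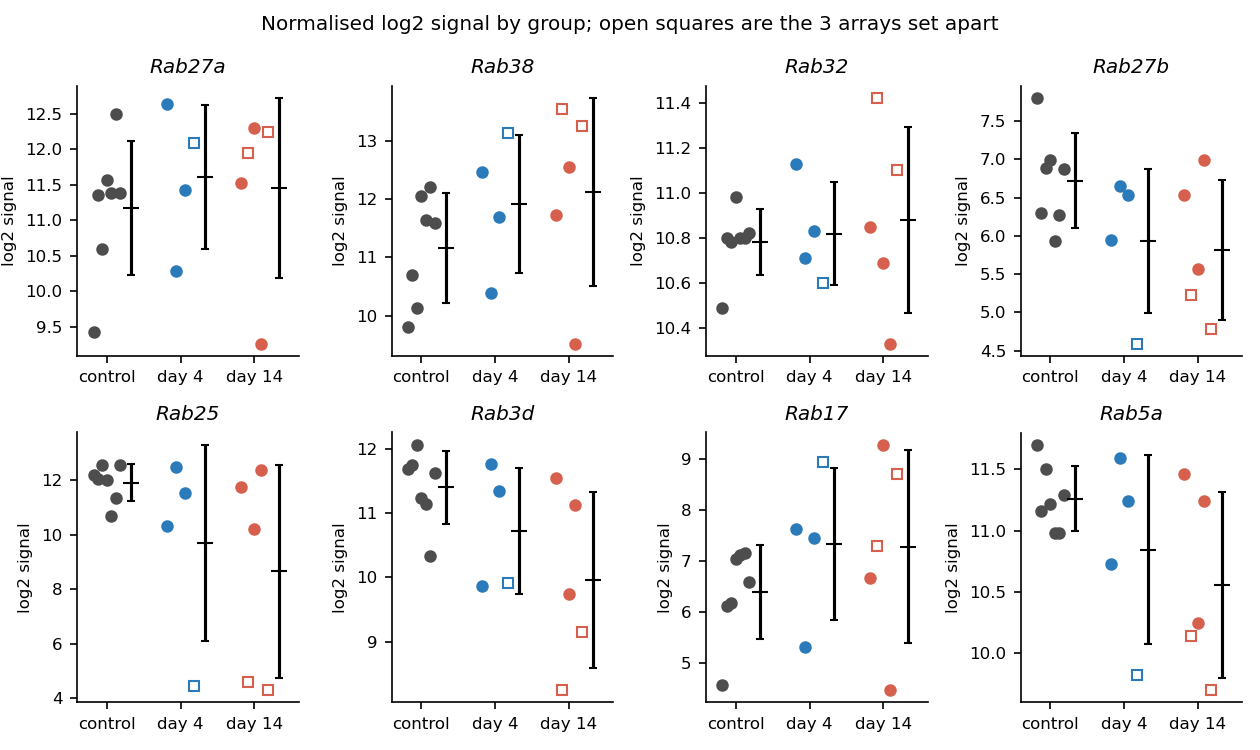
Log2 signal of 8 Rab genes by group. Each point is an array, open squares are day 4 array 4 and day 14 arrays 2 and 5, and the black bar is the group mean ± SD. The groups overlap for each gene, and the lowest Rab25 values, 4.30 to 4.60, are all open squares.

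The relation of each Rab transcript to pigment content was measured across the 13 arrays other than those 3, since a correlation pooled over separate clusters was not used. The index was the mean log2 signal of Dct, Tyr, Tyrp1, Pmel, Mlana, Mitf, Sox10, Slc45a2, Gpr143 and Oca2, which include no Rab gene. Every tested gene was correlated with it and tested with the same 100000 two-sided permutations, with Benjamini-Hochberg adjustment over 9440 genes. Of 47 Rab genes, 8 (17%) correlated positively at an adjusted p under 0.05, where 15.1% of all genes did, and 4 (8.51%) negatively, where 8.15% of all genes did. The share of Rab genes was thus near the background, so these counts did not set Rab genes apart from other genes. The members are named below as a description.

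Rab27a had the closest relation (Pearson r = 0.934, permutation p = 1e-05, adjusted p = 0.000555; Spearman rho = 0.956, permutation p = 1e-05), the p-values being the smallest these permutations can give. Without control array 1 and day 14 array 4, the 2 arrays farthest from the median of the index, r was 0.962. Within the 7 controls alone r was 0.973 (exact two-sided permutation p = 0.000397), and over deviations from the group means r was 0.943. Rab38 gave r = 0.908 (permutation p = 1e-05, adjusted p = 0.000555) and rho = 0.951 (permutation p = 1e-05), r = 0.954 without those 2 arrays and r = 0.896 within the controls (exact two-sided permutation p = 0.000198). Of the 9440 genes, 55 had a higher r than Rab27a and 120 a higher r than Rab38.

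The other 6 positive correlations were Rab17 (r = 0.857), Rab36 (0.82), Rab4a (0.774), Rab29 (0.721), Rab32 (0.717) and Rab8a (0.692). Their adjusted p-values by permutation lay between 0.00283 and 0.0379. Leaving out control array 1 and day 14 array 4 gave r = 0.793, 0.74, 0.77, 0.447, 0.458 and 0.447, in the same order. Rab17 is a Rab of polarised epithelia that has also been tied to filopodia of melanocytic cells, Rab36 acts at the Golgi, and Rab4a drives rapid recycling from early endosomes. Rab17 was not detected on control array 1 or day 14 array 4, at 4.57 and 4.47, and reached 7.04 to 7.15 on control arrays 4 to 6. The negative correlations were Rab27b (r = -0.798), Rab7b (-0.768), Rab18 (-0.725) and Rab5a (-0.721), with adjusted p-values by permutation between 0.0132 and 0.0392. Leaving out the same 2 arrays gave r = -0.553, -0.826, -0.45 and -0.75, in that order. Rab7b acts between endosomes and the trans-Golgi network, Rab18 at lipid droplets and the endoplasmic reticulum, and Rab5a in early endosome fusion. The next lowest values did not pass, with r = -0.642 for Rab25 (permutation adjusted p = 0.0579) and -0.637 for Rab11a (permutation adjusted p = 0.0669).

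When each of the 13 arrays was left out in turn, Rab27a, Rab38, Rab17 and Rab36 passed each time, and none of the 4 negative correlations did. The count of positive correlations was 4 without control array 6, 4 without day 4 array 1 and 5 without day 14 array 4, and that of negative ones was 2 in each of these 3 cases. Of the 5 Rabs assigned to melanosomes and lysosome-related organelles, 4 correlated positively (Rab27a, Rab38, Rab29, Rab32) and Rab27b negatively. Of all genes 15.1% correlated positively and 8.15% negatively, and this list was written with earlier results of these data known. Of these 5 Rabs, Rab27a and Rab38 passed each time an array was left out.

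**Figure D3:**
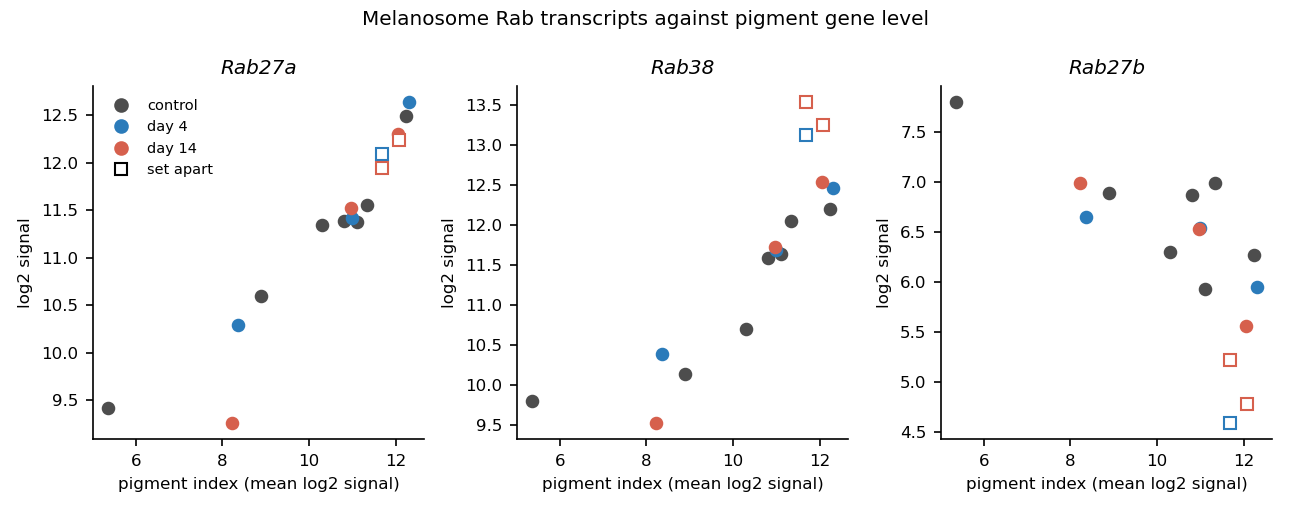
Log2 signal of Rab27a, Rab38 and Rab27b (vertical axes) against the pigment index (horizontal axis, mean log2 signal of 10 pigment genes) on the 16 arrays. Filled circles are the 13 arrays used for the correlations (r = 0.934, 0.908 and -0.798), and open squares are the 3 arrays set apart.

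Mlph and Myo5a, which tether Rab27a to actin, also correlated positively with the pigment index. Among all 35 tested effectors 7 correlated positively and 5 negatively, where 15.1% and 8.15% of all genes did. Mlph, the link between Rab27a and the motor, had log2 signals of 4.73, 6.75 and 7.51 in controls (lowest, median, highest), of 8.17, 4.97, 7.09 and 7.48 on day 4 arrays 1 to 4, and of 6.96, 8.87, 8.52, 5.47 and 9.22 on day 14 arrays 1 to 5. Across the 13 arrays it correlated with the pigment index at r = 0.922 (permutation adjusted p = 0.000555; rho = 0.907). Myo5a, the motor, correlated at r = 0.8 (permutation adjusted p = 0.0132; rho = 0.923). Its log2 signal was 9.48, 10.36 and 12.20 in controls (lowest, median, highest) and 12.33, 9.49, 10.66 and 10.58 on day 4 arrays 1 to 4. On day 14 arrays 1 to 5 it was 10.68, 10.47, 10.91, 10.41 and 10.40. Myrip, another link between Rab27a and a myosin, gave r = -0.576 (permutation adjusted p = 0.0993; rho = -0.516) and was chosen after its values were seen. Mlph differed from control by 1.37 at day 14 (standard error 0.693, limma adjusted p = 0.271) and Myo5a by 0.04 (standard error 0.465, limma adjusted p = 0.964). These differences were 0.54 and 0.13 without the 3 arrays. Gdi2, which extracts inactive Rabs from membranes, gave r = -0.536 with the index (permutation adjusted p = 0.132). Chm had no value here. Over all 91 tested partner genes (exchange factors, GTPase-activating proteins, effectors and the prenylation and recycling machinery), 15 (16.5%) correlated positively and 7 (7.69%) negatively, shares again near those of all genes.

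Some Rab transcripts correlated with the keratinocyte content of the arrays, at shares near or below those of all genes. The keratinocyte index, the mean of the 9 keratinocyte markers and added after the values were seen, correlated with the pigment index at r = -0.718 over the 13 arrays (permutation p = 0.00745; rho = -0.868, permutation p = 0.00029), and at -0.759 without control array 1 and day 14 array 4. The 2 indices are therefore not separate measures here, and the part of either in a Rab correlation was not tested. Of the 47 Rab genes, 7 (14.9%) correlated positively with the keratinocyte index at an adjusted p under 0.05 and 12 (25.5%) negatively, against 22.6% and 24.5% of all genes.

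The positive correlations were Rab5a (r = 0.937), Rab25 (0.936), Rab3d (0.922), Rab7b (0.919), Rab40c (0.857), Rab27b (0.842) and Rab2a (0.697), with adjusted p-values by permutation from 0.000338 to 0.0184. Rab25 is the epithelial member of the Rab11 subfamily, Rab3d serves granule exocytosis in secretory cells, and Rab40c is the adaptor of a ubiquitin ligase. The largest negative values were those of Rab4a (r = -0.962) and its paralogue Rab4b (r = -0.894), with adjusted p-values by permutation of 0.000338 and 0.00187. Without day 14 array 3 and day 4 array 1, the arrays farthest from the median of this index, r was 0.881 for Rab5a, 0.847 for Rab25, -0.901 for Rab4a and -0.69 for Rab4b. Rab17, Rab27a, Rab29, Rab36, Rab38 and Rab4a passed positively with the pigment index and negatively with the keratinocyte index, and Rab27b, Rab5a and Rab7b the reverse.

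The correlations of paralogues are given side by side, and the differences between the members of a pair were not tested. Rab27a gave r = 0.934 with the pigment index and Rab27b -0.798. Rab7b gave r = 0.919 with the keratinocyte index, and Rab7, the main Rab of late endosomes and lysosomes, -0.069 (permutation adjusted p = 0.868). Rab5a gave 0.937 with that index and Rab5c -0.324 (permutation adjusted p = 0.368). Rab7 and Rab5c gave -0.043 and -0.131 with the pigment index and so passed with neither. Rab4a and Rab4b both gave negative values with the keratinocyte index.

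**Figure D4:**
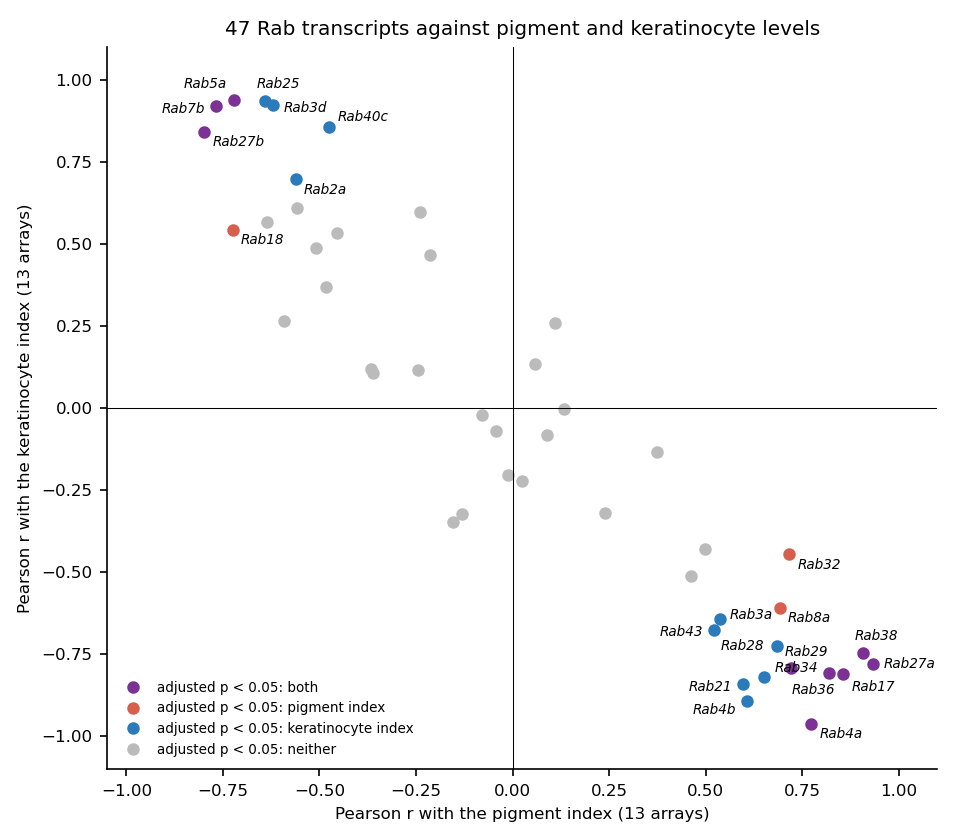
Pearson r of each of the 47 Rab genes with the pigment index (horizontal) and with the keratinocyte index (vertical) over 13 arrays. Colours give the index with which the adjusted permutation p was under 0.05; the genes run from the upper left (Rab27b, Rab7b, Rab5a) to the lower right (Rab27a, Rab38, Rab4a).

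In the comparison of day 4 with control, no Rab gene passed. A call required a 2-fold difference and a limma adjusted p below 0.05. None of the 47 was called, and neither was any other gene (0% of all genes), and the lowest adjusted p of a Rab gene was 0.75. At an unadjusted p under 0.05 there were also 0 Rab genes, where 0.381% of all genes were higher and 0.212% lower. There were likewise 0 without the 3 arrays, against 0.106% and 0.0317% of all genes. Of the 47, 30 had a positive and 17 a negative log2 difference, and the median was 0.11 (0.05 for all genes), and 0.04 (0.01 for all genes) without the 3 arrays. The differences ran from -2.21 for Rab25 to 0.94 for Rab17. The 5 Rab genes with the smallest unadjusted p-values in limma (0.0543 to 0.194, adjusted p = 0.75 for each) were Rab39 at -0.40, Rab13 at 0.60, Rab27b at -0.79, Rab33b at 0.59 and Rab25 at -2.21. With those 3 arrays left out these were -0.36 for Rab39, 0.44 for Rab13, -0.34 for Rab27b, 0.27 for Rab33b and -0.47 for Rab25. Rab13, a Rab of tight junction transport, was 5.63 to 6.73 in controls and 6.64 to 7.35 at day 4.

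In the comparison of day 14 with control, again 0 Rab genes were called by limma, against 0% of all genes, and the lowest adjusted p was 0.269. At an unadjusted p under 0.05, 1 Rab gene was higher and 3 were lower, where 6.19% and 11.8% of all genes were. The median over the 47 was 0.10 (0.04 for all genes), with 27 positive and 20 negative. Without the 3 arrays set apart the median was -0.07 (-0.04 for all genes), with 0 called by limma. At an unadjusted p under 0.05, 2 Rab genes were then higher (Rab24 and Rab44) and 1 lower (Rab6b), where 0.963% and 1.2% of all genes were. These are other genes than the 4 with all arrays, none of which passed there, and each had a limma adjusted p of 0.967.

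Rab34, a Rab of the Golgi and of macropinocytosis, was the higher one. It measured 9.93, 10.23 and 10.97 in controls (lowest, median, highest), and 10.56, 11.21, 11.44, 10.63 and 11.13 on day 14 arrays 1 to 5, above the control median on each array. Its difference was 0.65 (standard error 0.226, unadjusted p = 0.0113, limma adjusted p = 0.269), and 0.53 without the 3 arrays. Rab34 also gave r = -0.818 with the keratinocyte index (permutation adjusted p = 0.00389).

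The 3 lower Rabs were Rab2a, Rab3d and Rab25, each with a limma adjusted p of 0.269. Rab2a, which acts between the endoplasmic reticulum and the Golgi, was 12.44 to 12.91 in controls and 12.47, 12.17, 11.83, 12.59 and 12.20 on day 14 arrays 1 to 5, a difference of -0.42 (standard error 0.156, -0.38 without the 3 arrays). Rab3d was 10.33, 11.62 and 12.06 in controls (lowest, median, highest) and 11.54, 8.25, 9.75, 11.13 and 9.15 on day 14 arrays 1 to 5. Its difference was -1.44 (standard error 0.535), and -0.60 (standard error 0.476) without the 3 arrays.

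Rab25 was the most variable of all. It was 10.68, 12.05 and 12.58 in controls (lowest, median, highest), 10.32, 12.51, 11.52 and 4.47 on day 4 arrays 1 to 4, and 11.77, 4.60, 10.23, 12.38 and 4.30 on day 14 arrays 1 to 5. It was high on the 13 arrays with strong keratinocyte markers and not detected on the 3 arrays set apart. Its difference was -2.21 at day 4 (standard error 1.63) and -3.26 at day 14 (standard error 1.52), and -0.47 and -0.46 without those arrays. Its second probe gave -1.61 and -2.37.

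**Figure D5:**
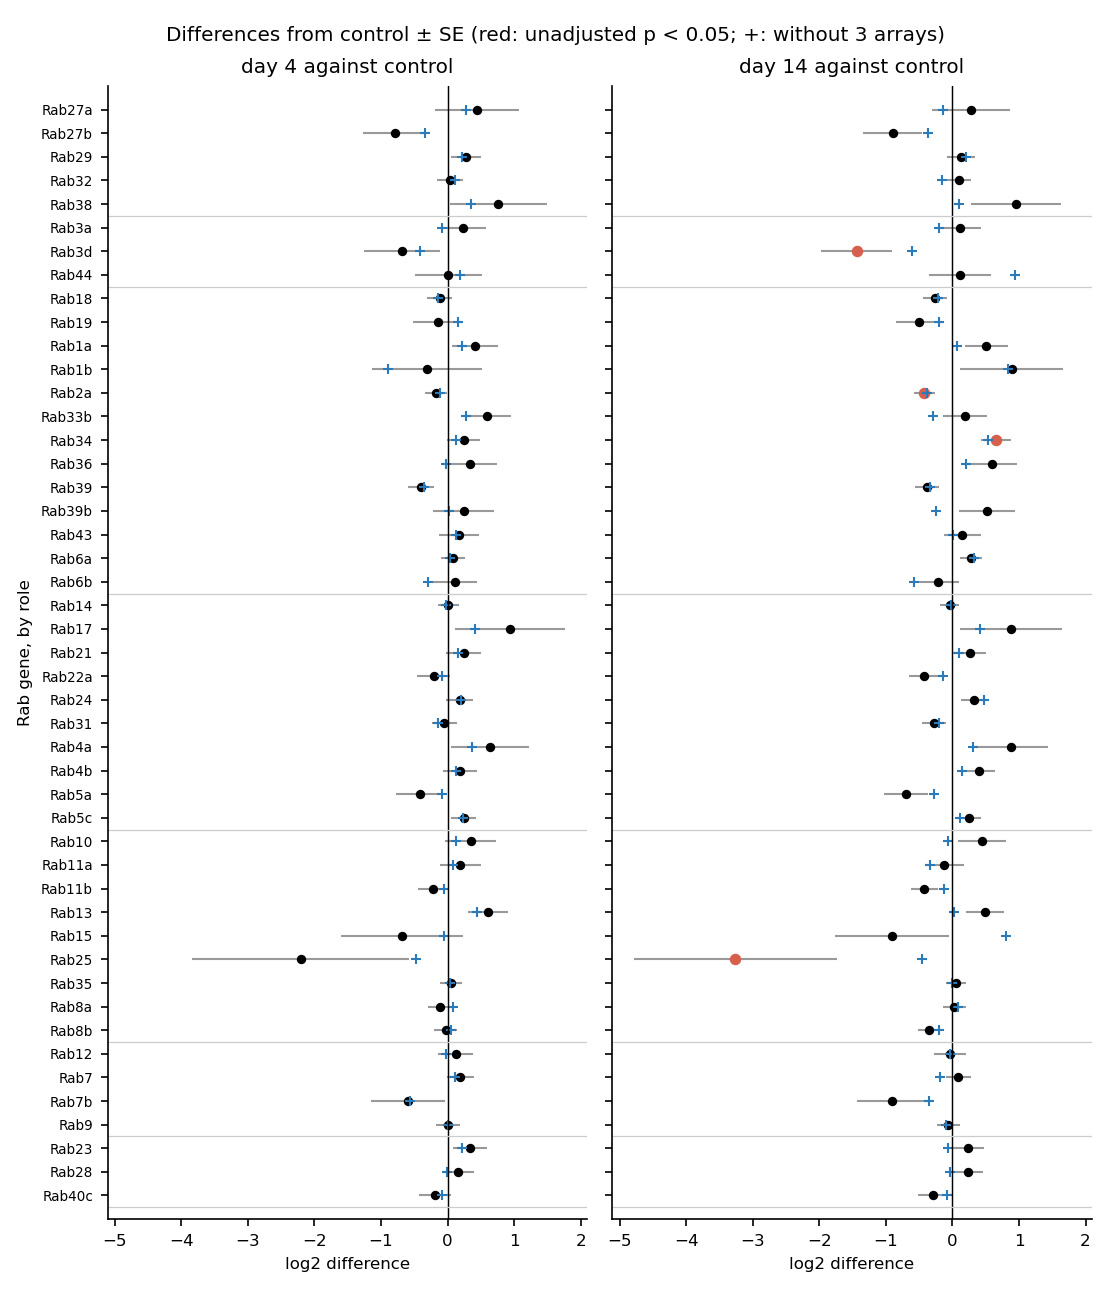
Log2 difference from control with its standard error for each of the 47 Rab genes, at day 4 (left) and day 14 (right). Red points have an unadjusted limma p under 0.05 (0 at day 4, and Rab3d, Rab2a, Rab34 and Rab25 at day 14), and blue crosses are the differences without the 3 arrays set apart, where Rab25 lies at -0.47 and -0.46.

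Both comparisons share the 7 controls. Between the days themselves 0 Rab genes were called by limma, against 0% of all genes, and the lowest adjusted p was 1. At an unadjusted p under 0.05 there were 0 Rab genes, where 0.201% of all genes were higher at day 14 and 0.402% lower. The fit without the 3 arrays also gave 0, against 0.339% and 0.72% of all genes. The median over the Rab genes was -0.10 (-0.03 for all genes), and -0.06 for both without the 3 arrays. The 5 Rab genes with the smallest unadjusted p-values in limma (0.111 to 0.236, adjusted p = 1 for each) were Rab8b at -0.32, Rab34 at 0.41, Rab2a at -0.25, Rab1b at 1.19 and Rab3d at -0.76. Without the 3 arrays these were -0.26 for Rab8b, 0.40 for Rab34, -0.27 for Rab2a, 1.72 for Rab1b and -0.19 for Rab3d. Without day 4 array 1, on which Rab1b was low, its difference was 0.126.

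The 3 arrays set apart held the extreme values of some Rab genes, at shares below those of all genes. These arrays held the 3 lowest of all 16 values for 7 Rab genes (14.9%, against 20.1% of all genes), namely Rab11b, Rab15, Rab19, Rab22a, Rab25, Rab27b and Rab5a. They held the 3 highest for another 7 (14.9%, against 18.4% of all genes), namely Rab10, Rab13, Rab1a, Rab28, Rab38, Rab39b and Rab7. Rab15, a Rab of endosomal recycling, was 6.35, 5.52 and 5.39 on these arrays and 8.33 to 11.22 on the others. Rab28, a ciliary Rab, was 11.63 to 12.35 on the other 13 arrays and reached 13.03 on the 3. The marker signals of these arrays are given above, and the part of each cell type in these Rab values was not tested.

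By role, no list held a called gene in any comparison. The 5 Rabs of melanosomes and lysosome-related organelles had a median log2 difference of 0.28 at day 4 and 0.13 at day 14. Without the 3 arrays these were 0.22 and -0.14, so the sign at day 14 depended on those arrays. The 3 tested Rabs of the cilium, ubiquitin ligase and other roles had medians of 0.16 and 0.24 (-0.01 and -0.07 without the 3 arrays). The 13 tested Rabs of the endoplasmic reticulum and Golgi had a median log2 difference of 0.11 at day 4 and 0.19 at day 14 (0.02 and -0.20 without the 3 arrays), with 1 higher and 1 lower at day 14 at an unadjusted p under 0.05 (Rab34 and Rab2a). The 10 Rabs of endocytosis and early endosomes had medians of 0.19 and 0.26 (0.15 and 0.11 without the 3 arrays). In that list Rab17 was at 0.94 and 0.88 (0.41 and 0.41 without them), and Rab5a at -0.42 and -0.70 (-0.08 and -0.28). The 9 Rabs of recycling and polarised transport had medians of -0.03 and -0.12 (0.05 and -0.06 without the 3 arrays), with Rab25 as the 1 lower gene at day 14. The 4 tested Rabs of late endosomes and lysosomes had medians of 0.06 and -0.04 (0.00 and -0.14 without the 3 arrays). The 3 Rabs of regulated secretion had medians of 0.01 and 0.11 (-0.08 and -0.20 without the 3 arrays), and Rab3d was the 1 lower gene at day 14. Rab44, a large Rab linked to mast cell granules, was 7.93 on day 14 array 4 and 4.65 to 6.69 on the other arrays. For all genes the medians were 0.05 and 0.04, and 0.01 and -0.04 without the 3 arrays. At day 14, 6.19% of all genes were higher and 11.8% lower at an unadjusted p under 0.05. With the 3 arrays left out, other Rabs passed: Rab24 (endocytosis) and Rab44 (regulated secretion) higher, and Rab6b (endoplasmic reticulum and Golgi) lower. Of all genes, 0.963% were then higher and 1.2% lower.

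Among the partner genes fixed by list, 0 of 5 prenylation and recycling genes, 0 of 23 exchange factors, 0 of 28 GTPase-activating proteins and 0 of 35 effectors were called in any comparison. At day 14 the numbers higher and lower at an unadjusted p under 0.05 were 0 and 0, 1 and 0, 3 and 1, and 1 and 5, where 6.19% of all genes were higher and 11.8% lower. Without the 3 arrays set apart, 1 effector was lower (Uso1) and no other partner gene passed. Of all genes, 0.963% were then higher and 1.2% lower. Uso1, named after its values were seen, differed by -0.51 with all arrays (standard error 0.175, limma adjusted p = 0.269). It differed by -0.53 without the 3 arrays (standard error 0.164, limma adjusted p = 0.967). The 3 with the smallest unadjusted p-values at day 14 in limma (0.00787 to 0.00828, adjusted p = 0.269 for each) were Rilp, Usp6nl and Hps4. Rilp, the effector through which Rab7 recruits dynein, differed by -1.03 (standard error 0.338). Usp6nl, a GTPase-activating protein for Rab5, differed by 0.62 (standard error 0.205), and Hps4, a subunit of the exchange factor for Rab32 and Rab38, by 0.67 (standard error 0.222). These were -0.54, 0.40 and 0.47 without the 3 arrays. At day 4 the 3 were Tbc1d10b at 0.74, Rilp at -0.73 and Rabgap1l at 0.63, each with a limma adjusted p of 0.75 (0.47, -0.39 and 0.38 without the 3 arrays). Between the days they were Tbc1d10a at 0.65, Usp6nl at 0.43 and Rab11fip4 at -0.45, each with a limma adjusted p of 1 (0.65, 0.28 and -0.37 without the 3 arrays).

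For 3 Rabs the probes of a gene disagreed in sign by at least 0.5. The brighter probe of Rab1a, which with Rab1b drives traffic from the endoplasmic reticulum to the Golgi, differed from control by 0.51 at day 14 and its other probe by -0.26. The brighter probe of Rab1b differed by -0.31 at day 4 and the other by 0.39. That brighter probe read 5.87 on control array 6 and 5.08 on day 4 array 1, where it was not detected, against 7.75 to 10.16 elsewhere. For Rab6a, a Golgi Rab with 4 probes, the differences at day 14 ran from -0.08 to 0.42. The values of Rab1a, Rab1b and Rab6a are therefore uncertain.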

How the data were processed

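Expression was measured on Illumina bead arrays in 16 tissue samples. Per the file headers, the deposited scanner table holds a signal intensity and a detection p-value for each probe on each array. From probe line 23 on, its p-values stand 2441 lines below the signals they belong to, and this shift was removed. A second deposited table holds log2 values for 16247 probes; the labels do not record how the authors made them. It served as an alternative and through the platform annotation as the source of symbols for 14836 probes.

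Signals were background-corrected and quantile-normalised with neqc (detection p-values, offset 16) in limma 3.58.1 under R 4.3.3. Probes detected (p under 0.05) on at least 4 arrays were kept, and the brightest stood for a gene. One limma model with 3 groups over 16 arrays gave two-sided tests, adjusted by Benjamini-Hochberg over 9450 genes. Calls needed a 2-fold difference and an adjusted p below 0.05. Array numbers limit the precision. The model and the correlation test were tested on simulated data.

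The members, lists, tests and the 3 arrays set apart were chosen with earlier results of these data known, and the keratinocyte index was added after its values were seen. Genes named were the melanosome Rabs, the 12 with the largest and 6 with the smallest SD, the 5 with the smallest p per comparison, the 6 highest and 6 lowest correlations with the pigment index, and those whose probes disagree. For partners they were the 3 with the smallest p per comparison plus Mlph, Myo5a, Chm and Gdi2; another item is not reported here. Alternatives covered background correction, offset, detection filter, probe choice, array weights, pairing and leaving out arrays. Same-numbered arrays of different groups correlated at -0.806 to 0.446, so the numbers were not taken to pair them. The labels give no slides. Protein sequences were not used here.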

Additional observations from a re-analysis of the deposited data

Results flagged for a closer look

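Within the groups of 4, 5 or 7 arrays, 5 values of the 30 named Rab genes lay farther from the other arrays of their group than the critical value of Dixon's test allows, out of 90 groups tested. Chance alone gives about 1 in 20, and this count is near that rate. The named genes were picked partly for a large SD over these same arrays, so the rate is only a rough guide. Rab27a was 9.26 on day 14 array 4, against 11.52 to 12.30 on the other 4 arrays, and the pigment index of that array was 8.21. On control array 1, where the pigment index was 5.36, Rab17 was 4.57 and Rab32 was 10.49, each below the other controls. On day 4 array 4, which lacked keratinocyte markers, Rab15 was 6.35 and Rab2a was 12.32, each below the other day 4 arrays. The part of cell content in these values was not tested.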

How the results depend on the processing

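No Rab gene was called in any comparison under the alternatives run. These were log2 signals without background correction, the deposited log2 values, an offset of 50, detection on all 16 arrays or no filter, the mean of all probes, array weights, the replicate block, and the fits without the 3 arrays, without these and the first control, and without each array in turn. Over 24 single-gene differences and 617 alternative values the lowest adjusted p was 0.113, and 22 values had the opposite sign, for Rab25, Rab27a, Rab27b and Rab38. The median Rab difference at day 4 was -0.0244 with array weights. At day 14 it was -0.065 without the 3 arrays and -0.0889 without these and control array 1, and between the days it was 0.0129 with array weights. The cause was not tested.

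With the replicate block, Rab27a correlated with the pigment index at 0.97 and Rab38 at 0.924 over 10 arrays, and 6 of 13 same-numbered pairs of arrays had r over 0.1. Without single arrays r ranged from 0.928 to 0.965 for Rab27a and from 0.897 to 0.965 for Rab38. The counts of correlated Rab genes under alternatives were added after seeing the data. With the pigment index they ranged from 4 to 9 positive and from 2 to 5 negative without single arrays, and 2 were negative with detection on all 16 arrays, a filter that leaves 5 pigment genes and no keratinocyte marker. Without single arrays the keratinocyte index gave 6 to 9 positive and 10 to 12 negative. Few arrays and signals near background for Rab39 and Rab19 limit the precision.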
